A study of Mus musculus with 6 samples.

Results

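The genes described here are imprinted growth-control genes of the mouse, measured in the colon of 3-week-old offspring. They were taken by symbol from a fixed list of 39 names, and 38 of them stand among the 20594 genes of the table. The other, Magel2, has no row, so its expression is not analysed here. Of the 38, 11 are known to be expressed from the maternal allele and 19 from the paternal allele, and for 8 the imprinted allele depends on tissue or isoform. The 3 control libraries came from C57BL/6J offspring whose dams received 0% dextran sulfate sodium (DSS), and the other 3, called maternal DSS, from C57BL/6J offspring whose dams received 1.5% DSS, a polysaccharide that injures the colon lining. The labels place the exposure between embryonic days 13 and 19, while the design text speaks of 5 days in the second trimester. No offspring is labelled as given DSS itself. The titles speak of 3 offspring without saying whether a library pools animals, and no dam, litter or sex is given, so p-values measure the spread between these libraries, which may be technical.

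An imprinted gene is transcribed mainly from the copy inherited from 1 parent, because DNA methylation set in the egg or sperm marks the parental copies differently at a control region. Many such genes set fetal growth. Paternally expressed Igf2 promotes it, and maternally expressed genes such as H19, Igf2r, Cdkn1c and Grb10 restrain it, and in mice most of this network is switched down in the weeks after birth. The strain is inbred and the values sum over both alleles, so the parental class of each gene is background knowledge and was not measured. In tissue RNA, fewer cells of a type and less RNA per cell cannot be told apart.

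The values are FPKM, fragment counts divided by transcript length and library total, as deposited by the authors, and read depth is unknown. A gene was tested when it reached an FPKM of 1 in at least 3 libraries, which 13594 genes did, 29 of the 38 imprinted genes among them. Positive fold changes mean higher in maternal DSS. They are on the log2(FPKM + 1) scale, where changes of low genes come out too small, and were fitted with limma and adjusted over all tested genes by the Benjamini-Hochberg method. No gene reached an adjusted p of 0.05 (0% of all tested genes), and the smallest adjusted p was 0.49 over all genes and 0.62 over the imprinted ones. At an unadjusted p under 0.05 there were 1064 genes (7.83%). Colon epithelium was present in every library, with Epcam between 583 and 686 FPKM and the colonocyte enzyme Car1 between 4528 and 7277 FPKM.

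Some libraries stood apart from the others. A list of 16 skeletal muscle genes, written after values were seen, summed to 1419 FPKM in maternal DSS 1 against 82.5 and 135 in maternal DSS 2 and 3 and 126 to 466 in controls, and all 16 were highest in maternal DSS 1. A list of 12 genes of stratified squamous epithelium, also written after values were seen, summed to 254 FPKM in maternal DSS 1, 42.2 and 12.9 in the other two and 65.2 to 77.6 in controls, again with 12 of 12 highest in maternal DSS 1. No gene of either list was below 0.1 FPKM in every library. Plasma cell genes summed to 809 and 1110 FPKM for maternal DSS 2 and 3, to 202 for maternal DSS 1 and to 153 to 200 in controls. Small intestine and Paneth cell genes summed to 128 and 125 FPKM in maternal DSS 2 and 3, to 43.2 in maternal DSS 1 and to 34.6 to 48.7 in controls. Long transcripts were low in some libraries. Among 2755 tested genes with a transcript of 5000 nt or more, the median difference from the control mean was -0.31 on the log2 scale in maternal DSS 3, -0.16 in maternal DSS 2, -0.10 in control 3 and 0.02 in maternal DSS 1.

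H19 varied more than any other imprinted gene here. This maternally expressed long non-coding RNA (chromosome 7, 142575530 to 142578146, minus strand, GRCm38.p6) restrains growth in mice and is the host transcript of a microRNA, miR-675. It had control values of 9.02, 18.9 and 7.39 FPKM and maternal DSS values of 106, 5.77 and 5.35 FPKM, given here and below in the order of replicates 1, 2 and 3. Maternal DSS 1 stood 5.62 times above the next library, control 2, while maternal DSS 2 and 3 lay below all 3 controls, so the groups overlapped. The means were 39.1 ± 58.2 FPKM in maternal DSS and 11.8 ± 6.23 FPKM in controls (SD, n = 3 per group), and the limma log2 fold change was 0.49 (SE 1.04, adjusted p = 0.87). Without maternal DSS 1 the sign turned, to -0.86 (SE 0.33, adjusted p = 0.18). Of the 13594 tested genes, H19 had the widest gap between maternal DSS 1 and the highest of the other 5 libraries, 2.43 on the log2(FPKM + 1) scale. This ranking was made after its values were seen.

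The mature sequences of miR-675 are shown because they are the small RNA product of the transcript that varied most, although mature microRNAs were not measured here. They come from RefSeq (GRCm38.p6, minus strand) and lie inside H19 at chr7:142577112-142577133 and chr7:142577078-142577099. Capitals mark the seed, bases 2 to 8, and the seeds of the 2 arms differ.
mmu-miR-675-5p: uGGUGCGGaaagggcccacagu
mmu-miR-675-3p: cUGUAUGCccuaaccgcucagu

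The genes that came next to H19 in that ranking were mostly of skeletal muscle. Among its first 10, H19 was followed by Sln, Tnnc2, Krt15, Tnnt3, Tnni2, Mylpf, Krt5, Lce1m and Csrp3, that is sarcolipin, fast-fibre troponins, a myosin light chain, a muscle LIM protein and genes of stratified epithelium. Tnnt3, a fast skeletal muscle troponin, had control values of 24.03, 43.2 and 10.96 FPKM and maternal DSS values of 155, 6.02 and 12.1 FPKM. H19 and the summed skeletal muscle list shared their 3 highest libraries in the same order, maternal DSS 1, control 2 and control 1. Below these the orders differed, with maternal DSS 3 above control 3 and maternal DSS 2 for the muscle sum and below both for H19. The muscle list was written after values were seen, so the shared order is description only. The part of muscle transcripts in the H19 values was not tested.

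**Figure D1:**
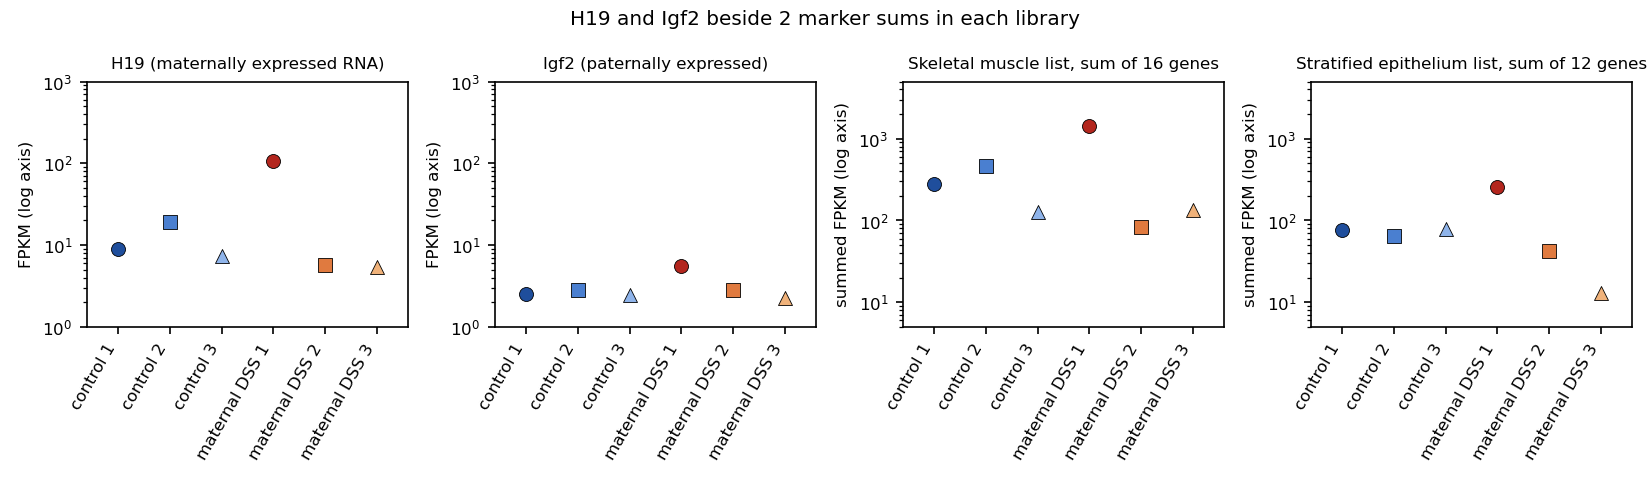
H19, Igf2 and the summed FPKM of the skeletal muscle and stratified epithelium lists in each of the 6 libraries, on log axes with 1 point per library. Maternal DSS 1 is the highest point in all 4 panels, at 106 FPKM for H19 and 1419 for the muscle sum, while the other 5 libraries lie at 5.35 to 18.9 FPKM for H19 and 2.23 to 2.85 for Igf2.

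Igf2, the fetal growth factor that is the reciprocally imprinted neighbour of H19 (chromosome 7, 142650768 to 142666816), was also highest in maternal DSS 1, by a smaller margin. It had control values of 2.53, 2.84 and 2.43 FPKM and maternal DSS values of 5.63, 2.85 and 2.23 FPKM. The value of maternal DSS 1 was 1.97 times that of the next library, and the other 5 libraries lay close together. The limma log2 fold change was 0.28 (SE 0.25, adjusted p = 0.70) and -0.028 (SE 0.12) without maternal DSS 1. Both genes are thus high in the same library, but unequally, and the H19 to Igf2 ratio of FPKM was 18.9 in maternal DSS 1, 6.65 in control 2 and between 2.02 and 3.56 elsewhere.

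Igf2r encodes the receptor that carries IGF2 to the lysosome for degradation, and its paternal copy is silenced in mice by the antisense RNA Airn. Igf2r (chromosome 17, 12682406 to 12769706) had control values of 17.3, 18.1 and 15.96 FPKM and maternal DSS values of 18.3, 15.0 and 10.8 FPKM. Maternal DSS 3 was the lowest and maternal DSS 1 just above control 2. The log2 fold change of -0.23 (SE 0.17) became -0.39 (SE 0.14) without maternal DSS 1, and -0.11 when the trend with transcript length was also removed. The longest Igf2r transcript has 8887 nt. Airn ranged from 2.13 FPKM in control 3 to 4.60 in maternal DSS 1 (log2 fold change 0.21, SE 0.21), and its fold change was 0.053 with control 3 left out, 0.065 with maternal DSS 1 left out, 0.35 with control 1 left out and 0.41 with maternal DSS 3 left out. Airn overlaps Igf2r on the other strand, and no source used here says whether reads were counted by strand, so the values of the pair are uncertain. The same holds for other pairs on opposite strands, such as Mest and Copg2 or Rtl1 and Meg3.

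Grb10, an adaptor protein that damps insulin and IGF receptor signalling, was also highest in maternal DSS 1. It had control values of 5.90, 7.30 and 5.56 FPKM and maternal DSS values of 9.19, 5.40 and 4.77 FPKM. The other 2 maternal DSS libraries lay below all controls. Its log2 fold change was 0.0012 (SE 0.21) with all libraries and -0.25 (SE 0.12) without maternal DSS 1.

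The Kcnq1 domain lies beyond H19 and Igf2 on chromosome 7. Its best known member is Cdkn1c, which encodes the cyclin-dependent kinase inhibitor p57Kip2 (chromosome 7, 143458339 to 143461059). Cdkn1c had control values of 4.41, 4.80 and 5.53 FPKM and maternal DSS values of 7.72, 5.13 and 5.74 FPKM. Maternal DSS 1 and 3 lay above all controls and maternal DSS 2 within their range, with a limma log2 fold change of 0.27 (SE 0.15, adjusted p = 0.62) that was 0.12 without maternal DSS 1. Slc22a18, a membrane transporter gene, had the highest FPKM of the maternally expressed genes in every library but maternal DSS 1 and ranged from 33.5 to 40.8 FPKM (log2 fold change 0.06, SE 0.09). Phlda2, known for restraining the growth of the placenta, was below the filter, with control values of 0.945, 1.31 and 1.06 FPKM and maternal DSS values of 0.669, 0.707 and 0.920 FPKM. All 3 maternal DSS libraries lay below all controls, which 8.17% of all genes of the table did, but the groups overlapped after median-ratio scaling. The antisense RNA Kcnq1ot1, which silences the domain on the paternal chromosome, was at 0.0185 to 0.0559 FPKM.

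In the Dlk1-Meg3 domain on chromosome 12, the 3 maternally expressed non-coding RNAs were all highest in maternal DSS 1. Meg3 had control values of 20.4, 20.8 and 10.3 FPKM and maternal DSS values of 28.4, 9.60 and 13.5 FPKM. Rian, which carries small nucleolar RNAs, had control values of 25.0, 23.9 and 17.0 FPKM and maternal DSS values of 28.0, 13.1 and 17.0 FPKM. Mirg, which hosts a microRNA cluster, ranged from 1.31 to 2.24 FPKM. Meg3 and Rian were lowest in maternal DSS 2 and Mirg in control 3, and the groups overlapped for all 3. The log2 fold changes were -0.07 for Meg3 (SE 0.40), -0.22 for Rian (SE 0.26) and 0.0057 for Mirg (SE 0.17). The longest Meg3 and Rian transcripts have 14548 and 8089 nt. Without maternal DSS 1 the log2 fold change of Rian was -0.51, and -0.24 with the length trend removed as well.

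Dlk1, the paternally expressed gene of that domain, encodes a membrane protein of progenitor cells related to Notch ligands (chromosome 12, 109452485 to 109463336). It had control values of 5.42, 2.500 and 5.12 FPKM and maternal DSS values of 5.604, 5.44 and 5.59 FPKM. The maternal DSS libraries were nearly equal and lay just above controls 1 and 3, while control 2 was far lower. Dlk1 was the 1 tested imprinted gene whose maternal DSS libraries all lay above all controls, which 4.92% of all tested genes did, and the groups overlapped after TPM scaling. The limma log2 fold change of 0.34 (SE 0.22, adjusted p = 0.63) was 0.06 without control 2. The retrotransposon-derived Rtl1, needed for placental vessels in mice, stayed at or below 0.0124 FPKM.

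The start site windows of 3 genes are shown as examples, chosen among those that hold the hexamer TGCCGC. Meg3 and Plagl1 were highest in maternal DSS 1 and Nap1l5 was lowest there. Genes whose windows hold no TGCCGC, such as Igf2 and Grb10, were also highest in maternal DSS 1, and Phlda2, without it too, was lowest there. Each is the 250 bases before the first start listed in RefSeq (GRCm38.p6), namely chr12:109540746-109540995 on the plus strand for Meg3, chr10:13090582-13090831 on the plus strand for Plagl1 and chr6:58907127-58907376 on the minus strand for Nap1l5. Capitals mark TGCCGC on either strand (GCGGCA on the other), the hexamer bound by the imprint-keeping protein ZFP57 when methylated.
Meg3: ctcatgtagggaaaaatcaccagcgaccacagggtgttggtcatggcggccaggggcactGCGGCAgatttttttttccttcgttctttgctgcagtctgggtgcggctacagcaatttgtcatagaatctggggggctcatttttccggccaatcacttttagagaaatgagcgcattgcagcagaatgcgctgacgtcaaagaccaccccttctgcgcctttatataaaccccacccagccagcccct
Plagl1: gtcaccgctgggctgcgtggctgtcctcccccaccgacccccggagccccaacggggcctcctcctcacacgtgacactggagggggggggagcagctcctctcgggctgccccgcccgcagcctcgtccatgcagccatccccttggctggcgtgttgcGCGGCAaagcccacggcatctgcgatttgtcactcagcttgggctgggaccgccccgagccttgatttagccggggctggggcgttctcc
Nap1l5: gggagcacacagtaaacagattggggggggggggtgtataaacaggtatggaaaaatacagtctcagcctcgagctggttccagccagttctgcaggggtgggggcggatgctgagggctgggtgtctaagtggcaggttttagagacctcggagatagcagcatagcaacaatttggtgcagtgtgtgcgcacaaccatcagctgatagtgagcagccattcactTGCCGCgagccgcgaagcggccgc

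Each of the 3 windows holds 1 TGCCGC, by the choice of genes. At least 1 is found in 7 of the 31 imprinted genes matched in the promoter table (22.6%), Magel2 being among the 31, and in 8.59% of all 27025 promoters. The E-box CANNTG, which reads the same on both strands, is in 19 of 31 imprinted promoters and in 66% of all promoters. It is absent from the Meg3 window and occurs 2 times in those of Plagl1 and Nap1l5. The median number of CG dinucleotides was 11 in imprinted promoters and 6 in all. These are letter matches in the genome, and neither binding nor methylation was measured.

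Plagl1 encodes a zinc finger factor known in mice as a regulator of other imprinted genes, and Mest and Peg3 are paternally expressed genes tied to growth. Plagl1 had control values of 2.23, 2.18 and 1.88 FPKM and maternal DSS values of 2.98, 1.84 and 1.70 FPKM. Mest, a hydrolase-like gene, had control values of 1.87, 1.93 and 2.21 FPKM and maternal DSS values of 2.91, 1.54 and 1.40 FPKM. Peg3, a zinc finger gene, had control values of 2.87, 3.07 and 1.92 FPKM and maternal DSS values of 3.77, 1.94 and 0.964 FPKM. In all 3 genes maternal DSS 1 was the highest library and maternal DSS 3 the lowest. The log2 fold changes were 0.016 (SE 0.16), -0.06 (SE 0.19) and -0.25 (SE 0.31), and without maternal DSS 1 they were -0.16, -0.28 and -0.58. With the length trend removed as well, Plagl1 was at 0.011, Mest at -0.25 and Peg3 at -0.29. The neighbours of Peg3 were low. The zinc finger gene Zim1, maternally expressed, was highest in maternal DSS 1 (0.209 FPKM) and lowest in maternal DSS 3 (0.0254), as was the paternally expressed protease gene Usp29 (0.134 and 0.0487).

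**Figure D2:**
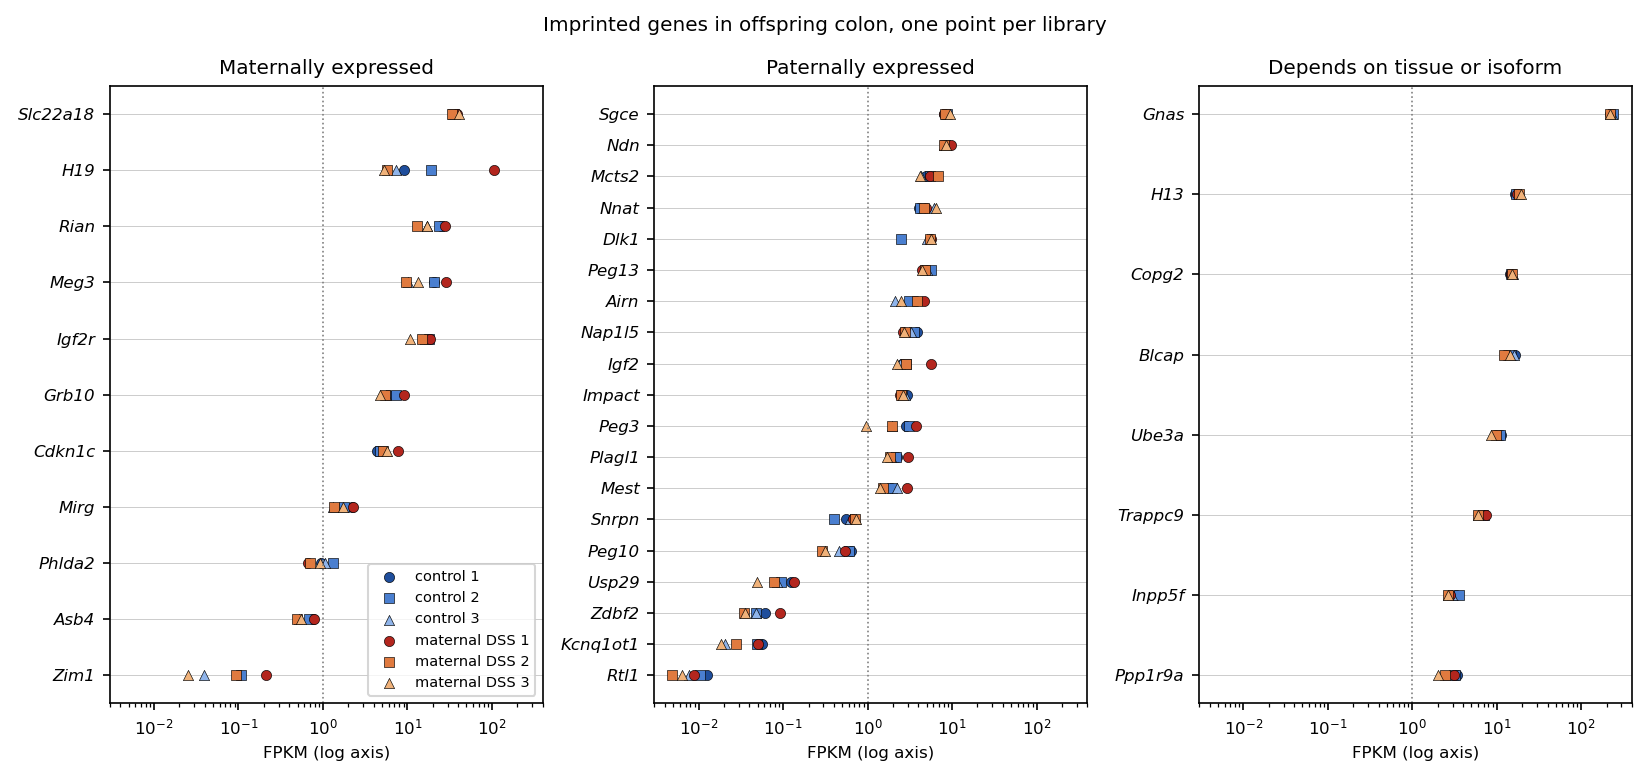
FPKM of the 38 imprinted genes on log axes, 1 point per library, in panels by parental class with genes ordered by their mean, and a dotted line at the filter of 1 FPKM. H19 spans from 5.35 to 106 FPKM, with the maternal DSS 1 point far to the right, while Gnas lies within 221 to 239 FPKM in all libraries.

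In the Sgce-Peg10 domain on chromosome 6, Sgce and Ppp1r9a passed the filter and Peg10 and Asb4 did not. Sgce, a paternally expressed sarcoglycan gene, had 7.98 to 9.58 FPKM and a log2 fold change of 0.018 (SE 0.09). Its paternally expressed neighbour Peg10, a retrotransposon-derived gene, was below the filter at 0.288 to 0.641 FPKM. Maternal DSS 2 and 3 lay below all controls for Peg10, and its longest transcript has 6667 nt. Both libraries did so for 29.4% of all tested genes, a share that leaves out genes below the filter such as Peg10. Asb4, which encodes an ankyrin repeat protein, had 0.493 to 0.786 FPKM and was highest in maternal DSS 1. Ppp1r9a, the actin-binding neurabin gene, had 2.01 to 3.36 FPKM and a log2 fold change of -0.23 (SE 0.14) that was -0.04 with the length trend removed.

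Some genes best known for imprinting in brain lay on 1 side of the controls in every maternal DSS library, although none passed the adjusted threshold. Nap1l5, a paternally expressed nucleosome assembly protein gene inside Herc3 on the other strand (chromosome 6, 58905233 to 58907126), had control values of 3.84, 3.59 and 3.24 FPKM and maternal DSS values of 2.61, 2.80 and 2.72 FPKM. All 3 maternal DSS libraries lay below all controls (means 2.71 ± 0.0979 and 3.56 ± 0.298 FPKM, SD, n = 3 per group), and limma gave a log2 fold change of -0.29 (SE 0.09, adjusted p = 0.62). Leaving out any 1 library gave values between -0.34 and -0.25. Its groups also did not overlap after TPM or median-ratio scaling, and its fold change was -0.32 with the length trend removed. Whether reads were counted by strand is not known, so its values may include reads of Herc3.

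Blcap (chromosome 2, 157556362 to 157566361) is a small membrane protein gene that holds the paternally expressed Nnat in an intron. It had control values of 16.3, 14.9 and 16.2 FPKM and maternal DSS values of 12.7, 12.2 and 14.5 FPKM. The maternal DSS libraries again lay below all controls, with a limma log2 fold change of -0.25 (SE 0.09, adjusted p = 0.62), though the groups overlapped after median-ratio scaling. Nnat itself, which encodes the small membrane protein neuronatin, had 4.02 to 6.16 FPKM in controls and 4.65 to 6.48 in maternal DSS libraries. Blcap and Nnat lie on opposite strands, and their values are uncertain if reads were not counted by strand. Inpp5f, an inositol phosphatase gene with an imprinted isoform in brain, had control values of 3.26, 3.53 and 3.00 FPKM and maternal DSS values of 2.77, 2.63 and 2.63 FPKM. These groups did not overlap under either scaling, and the log2 fold change of -0.21 (SE 0.09) was -0.12 with the length trend removed.

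Gnas and Peg13 completed the tested imprinted genes with all maternal DSS libraries below all controls, which makes 5 of 29, against 9.14% of all tested genes. With Dlk1, 6 of 29 did not overlap in either direction, against 14.1%. Gnas encodes the stimulatory G protein subunit and other imprinted products, and had control values of 233, 239 and 230 FPKM and maternal DSS values of 222, 222 and 221 FPKM. The fold change was small (log2 -0.08, SE 0.07). Peg13, a non-coding RNA inside Trappc9 on the same strand, had control values of 4.86, 5.58 and 5.04 FPKM and maternal DSS values of 4.40, 4.79 and 4.39 FPKM (log2 fold change -0.16, SE 0.09). For both genes the groups overlapped after median-ratio scaling. Trappc9, a vesicle trafficking gene, had 6.06 to 7.41 FPKM, and reads of the 2 genes may be shared. Counted by an unadjusted p under 0.05, 3 of 29 imprinted genes were lower (Nap1l5, Blcap and Inpp5f), against 5.41% of all tested genes, and 0 of 29 were higher, against 2.42%. With the length trend removed, 2 of 29 were lower (Nap1l5 and Blcap), against 5.29%, and 0 of 29 higher, against 3.88%.

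In the Prader-Willi and Angelman region on chromosome 7, the groups overlapped for Ndn and Ube3a but not for Snrpn. Ndn, which encodes necdin, had 8.09 to 8.31 FPKM in controls and 9.65, 7.95 and 8.56 in maternal DSS 1, 2 and 3. After median-ratio scaling, where 2023 genes did not overlap in either direction, the maternal DSS libraries of Ndn all lay above all controls. Ube3a, a ubiquitin ligase gene that is maternally expressed in neurons, had 9.72 to 11.2 FPKM in controls and 8.61 to 9.82 in maternal DSS libraries (log2 fold change -0.17, SE 0.09), and its sign turned to 0.023 with the length trend removed. Snrpn, a spliceosomal protein gene, was below the filter, with control values of 0.557, 0.403 and 0.621 FPKM and maternal DSS values of 0.666, 0.707 and 0.738 FPKM, all above the controls, which 4.7% of all genes of the table were. Its groups did not overlap after TPM or median-ratio scaling either. Snrpn shares its transcript with Snurf, which was listed at 8.56 to 20.4 times its level, so how reads were divided between them is uncertain. For Snurf itself the fold change was -0.011 (SE 0.13).

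Of the remaining genes, Impact, an inhibitor of the kinase GCN2, had 2.45 to 2.94 FPKM and Zdbf2, a zinc finger gene, at most 0.0919. The groups of Impact overlapped, but after TPM scaling its maternal DSS libraries all lay below all controls. With that scaling 2205 genes did not overlap in either direction. H13, the signal peptide peptidase gene, had 16.3 to 18.2 FPKM in controls and 17.5 to 19.4 in maternal DSS libraries. The retrogene Mcts2 in its intron had 4.20 to 6.73 FPKM, which may include reads of its X-linked source gene. Copg2, a coatomer subunit gene that overlaps the end of Mest on the other strand, lay between 14.6 and 15.8 FPKM in all libraries, with a log2 fold change of -0.0088 (SE 0.07), which turns positive after median-ratio scaling.

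**Figure D3:**
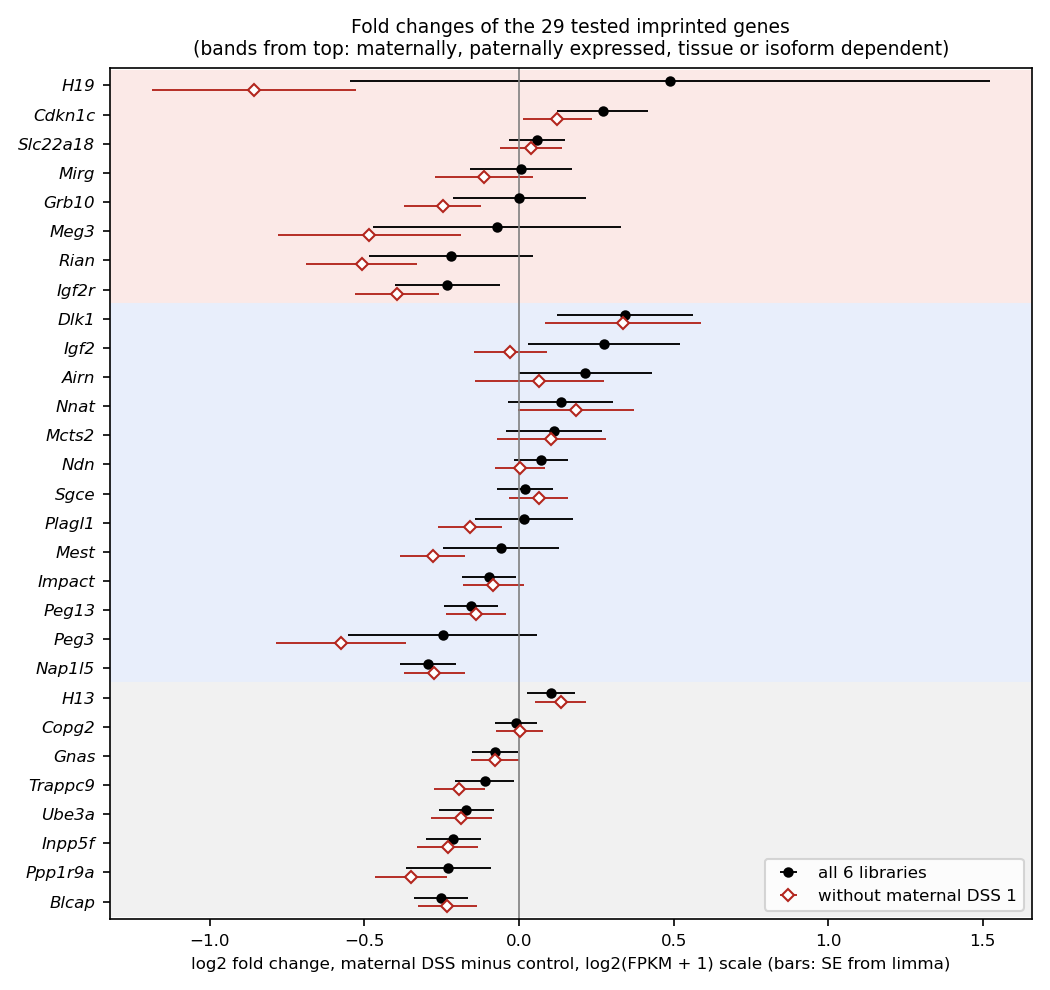
Log2 fold changes of the 29 tested imprinted genes with standard errors from limma, for all 6 libraries (black) and without maternal DSS 1 (red diamonds), shaded by parental class. H19 moves from 0.49 to -0.86 and most maternally expressed genes shift left, whereas Nap1l5 (-0.29 and -0.27) and Blcap (-0.25 and -0.23) barely move.

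With all 6 libraries, maternally and paternally expressed genes differed little in their group fold changes. Of 8 tested maternally expressed genes 5 had positive and 3 negative fold changes (median 0.0034), of 13 paternally expressed genes 8 were positive and 5 negative (median 0.018), and of the 8 genes that depend on tissue or isoform 1 was positive and 7 were negative (median -0.14). Over all tested genes 40.3% of fold changes were positive, 59.7% negative and the median was -0.037. After TPM scaling, which moved the median of all genes to -0.14, the class medians were -0.09, -0.07 and -0.26, and the maternal and paternal signs turned. The share of higher genes among all those with an unadjusted p under 0.05 was 30.9%, 10.5% after TPM scaling and 50% after median-ratio scaling.

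The classes differed more in how libraries were placed within them. Of the 11 maternally expressed genes, 9 were highest in maternal DSS 1, compared with 9 of 19 paternally expressed genes, 1 of the 8 others and 22.6% of all genes of the table. The mean log2(FPKM + 1) of the 8 tested maternally expressed genes, taken relative to controls, stood at 0.04, 0.18 and -0.22 for the controls and at 0.72, -0.35 and -0.26 for maternal DSS. For the 13 paternally expressed genes it stood at 0.04, -0.0096 and -0.03 for the controls and at 0.20, -0.0072 and -0.11 for maternal DSS. Both classes thus had their highest mean in maternal DSS 1, and the maternally expressed genes spread more widely within each group. The longest transcripts reach 5000 nt for Meg3, Igf2r, Rian and Grb10 in the maternal class, and for Peg3 and Plagl1 in the paternal class. Long transcripts were low in control 3 and in maternal DSS 2 and 3. Meg3, Rian and Mirg also lie in 1 domain. The part of length and of shared domains in this spread was not tested. Without H19 the maternal mean was 0.37 in maternal DSS 1 and -0.29 and -0.17 in the other two. These means received no test because the genes were chosen by name with earlier results known.

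**Figure D4:**
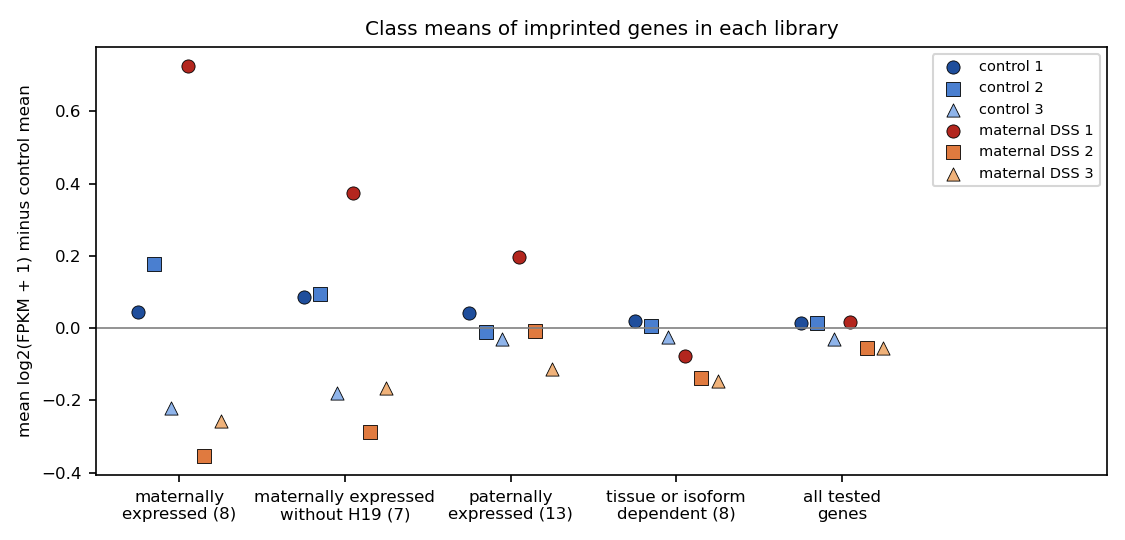
Mean log2(FPKM + 1) minus the control mean for each parental class and for all tested genes, 1 point per library, with the number of genes in brackets. Maternal DSS 1 lies at 0.72 for maternally expressed genes, 0.37 without H19 and 0.20 for paternally expressed genes, against 0.02 for all tested genes.

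Because maternal DSS 1 held the highest value of so many imprinted genes, the comparison was also read without it. That choice rests on the values of these genes and by itself lowers the fold changes of those highest there. The shares of all tested genes carry no such choice, so the counts below are description only. Then 13 of 29 imprinted genes lay below all controls in both remaining maternal DSS libraries and 2 of 29 above, against 29.4% and 15.8% of all tested genes (45.2% in either direction). At an unadjusted p under 0.05, 8 of 29 were lower (H19, Igf2r, Rian, Peg3, Mest, Nap1l5, Ppp1r9a and Blcap), against 17% of all tested genes, and 0 of 29 were higher, against 7.73% (24.8% in either direction). None of the imprinted genes passed the adjusted threshold (smallest adjusted p = 0.16 in limma), while 12 genes did over the whole table (0.0883%). With the length trend removed as well, 4 of 29 were lower, namely H19, Mest, Nap1l5 and Blcap, against 9.2%, and H13 was higher, against 10.5%. The median of the maternally expressed genes was -0.32 without maternal DSS 1 and -0.095 with the length trend also removed. For the paternally expressed genes these medians were -0.028 and 0.010. For the genes that depend on tissue or isoform they were -0.19 and -0.011.

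Genes that work with the imprinted growth factors were read from 2 lists of known partners. Neither list was read with the length trend removed, and long transcripts were low in maternal DSS 2 and 3. Of 22 tested genes of IGF and insulin signalling, 6 had positive and 16 negative fold changes (median -0.07), against 59.7% negative over all tested genes. At an unadjusted p under 0.05 there were 0 of 22 in either direction, against 7.83% of all tested genes. Without maternal DSS 1, 7 of 22 were lower and 0 of 22 higher, against 17% and 7.73%. Igfbp2, an IGF binding protein, had 19.3 to 23.5 FPKM in controls and 21.01, 13.02 and 17.2 in maternal DSS 1, 2 and 3 (log2 fold change -0.36, SE 0.17). The receptor Igf1r was at 2.31 to 3.09 FPKM in controls and 2.78, 1.90 and 1.48 in maternal DSS 1, 2 and 3 (log2 fold change -0.33, SE 0.17). Igf1, the postnatal growth factor, had 4.43 to 6.23 FPKM in controls and 5.05 to 7.11 in maternal DSS libraries, above Igf2 in every library.

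Of 19 tested genes that keep or read imprints, 2 had positive and 17 negative fold changes (median -0.13), against 59.7% negative over all tested genes. The length trend was not removed here either. At an unadjusted p under 0.05, 2 of 19 were lower and 0 of 19 higher, against 5.41% and 2.42% of all tested genes. Without maternal DSS 1 these became 7 of 19 lower and 0 of 19 higher, against 17% and 7.73%. Dnmt3a, a DNA methyltransferase, had control values of 5.88, 6.48 and 5.42 FPKM and maternal DSS values of 5.31, 3.83 and 3.31 FPKM, all below the controls (limma log2 fold change -0.44, SE 0.15, adjusted p = 0.62). For Arid4a, a chromatin regulator gene, limma gave a log2 fold change of -0.37 (SE 0.14), and for Zfp445, an imprint-keeping zinc finger gene, -0.30 (SE 0.14). Of 19 other tested imprinted genes, 7 were positive and 12 negative (median -0.03). Ascl2, a maternally expressed factor of placenta and of intestinal stem cells, had control values of 2.03, 1.50 and 2.13 FPKM and maternal DSS values of 1.02, 1.01 and 1.34 FPKM. All 3 maternal DSS libraries lay below all controls (limma log2 fold change -0.44, SE 0.13, adjusted p = 0.62).

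Markers of other cell types in the gut wall were read from the same libraries. Fibroblast genes summed to 1404 FPKM in maternal DSS 1, 1088 and 1096 in maternal DSS 2 and 3 and 1027 to 1288 in controls. Col1a1 was at 217 FPKM in maternal DSS 1 and at most 140 elsewhere. Of the 12 listed genes only 4 were highest in maternal DSS 1, and Lum and Pi16 were lowest there. Smooth muscle genes summed to 3106 FPKM in maternal DSS 1, 2410 and 2841 in the other two and 2891 to 3065 in controls. Genes of enteric neurons and glia summed to 42.7 to 44.9 FPKM in maternal DSS libraries against 46.8 to 54.3 in controls. Of 11 tested, 10 had negative fold changes, against 59.7% of all tested genes. The part of these cell types in the values of Nap1l5, Blcap and the other genes read in nerve was not tested.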

How the data were processed

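Colon RNA was turned into strand-specific mRNA libraries, as the labels' protocols state. FastQC 0.11.7, Trimmomatic 0.38, HISAT2 2.1.0 and StringTie 2.1.3b appear in the submitters' processing notes with mm10 as build, and DESeq2 with no version, all without a role or order. The authors deposited FPKM, which divides by transcript length and by the library's own total, so abundant RNAs or a bias with length shift many genes. Depth is unknown: 18 to 34 values per library lie between 0 and 0.0001 FPKM, too low for whole reads. The FPKM sums per library were 403673 to 492719.

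The filter kept genes reaching 1 FPKM in 3 or more libraries. Their log2(FPKM + 1) was fitted on group alone with limma 3.58.1 (R 4.3.3), with a mean-variance trend, two-sided, after the fit was tested on simulated data. Alternatives were other pseudocounts, filters and scalings, array weights, a replicate block and leaving out each library. Removing the trend with transcript length (loess per library, longest GENCODE M21 transcript, known for 97.1% of tested genes) was added after seeing the data. Coordinates are RefSeq's for GRCm38.p6, the build mm10 names, where all 39 symbols matched. All 39 genes are named, and of each pathway list genes among the 4 lowest unadjusted p. Igf1, the genes ranked after H19 and single marker genes were named after their values were seen. Members and lists were chosen with earlier results of these data known.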

Additional observations from a re-analysis of the deposited data

How the results depend on the processing

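Requiring an FPKM of 5 left 677 genes with an unadjusted p under 0.05 and 1198 whose groups did not overlap. Among the 17 imprinted genes kept by that filter these were 1 and 3. Median-ratio scaling left 1 of 29 imprinted genes with an unadjusted p under 0.05, and 1123 of all genes. Array weights gave 4933 adjusted and 6784 unadjusted calls among the 13594 tested genes. Of the 29 tested imprinted genes, 13 were among the unadjusted calls. Among the adjusted calls were 7 of 29 (Meg3, Rian, Nap1l5, Ppp1r9a, Trappc9, Blcap and Inpp5f). These weights put maternal DSS 1 at 0.249 and maternal DSS 2 at 5.47. Removing the length trend and maternal DSS 1 gave 7 adjusted and 2680 unadjusted calls among the 13594 tested genes. Of the 29 imprinted genes, 5 were among the unadjusted calls. The labels state no pairing of libraries by replicate number. Deviations of same-numbered libraries from their group means correlated at 0.28, -0.38 and 0.40, and not every library correlated best with its own number. With so few libraries, and shifts of whole libraries among them, these correlations cannot decide whether the numbers pair the libraries. A fit with the replicate block gave 0 adjusted and 1678 unadjusted calls among the 13594 tested genes, with 2 of the 29 imprinted genes among the unadjusted ones.

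Leaving out each library gave 0 to 12 adjusted calls, 401 to 3368 unadjusted calls and 2392 to 6143 genes without overlap, among 13594 tested genes. Among the 29 imprinted genes these were 0 to 8 unadjusted calls and 6 to 15 without overlap. Every upper end came without maternal DSS 1.

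Fold changes that turned their sign were the following. Array weights gave -0.89 for H19, -0.26 for Mirg, -0.22 for Grb10, -0.14 for Plagl1, -0.036 for Ndn, -0.058 for Slc22a18, -0.031 for Sgce and 0.026 for Copg2. TPM scaling gave -0.080 for Mirg, -0.10 for Grb10, -0.074 for Plagl1, -0.032 for Ndn, -0.051 for Slc22a18, -0.088 for Sgce and -0.0040 for H13. Pseudocounts of 0.1 and 0.5 gave -0.0043 and -0.0015 for Grb10, and median-ratio scaling 0.037 for Copg2. Removing the length trend gave 0.17 for Meg3, 0.023 for Ube3a and 0.056 for Copg2. Doing so without maternal DSS 1 gave -0.86 for H19, -0.017 for Mirg, -0.088 for Grb10, -0.020 for Slc22a18, 0.026 for Gnas, 0.010 for Impact, 0.12 for Ube3a, -0.0089 for Airn, 0.0043 for Peg13, 0.11 for Copg2 and -0.029 for Mcts2. Leaving out a library turned H19 (-0.86 to 1.18), Igf2 (-0.028 to 0.49), Meg3 (-0.48 to 0.25), Rian (-0.51 to 0.011), Mirg (-0.12 to 0.12), Grb10 (-0.25 to 0.16), Peg3 (-0.58 to 0.064), Plagl1 (-0.16 to 0.12), Mest (-0.28 to 0.073), Slc22a18 (-0.00052 to 0.14), Sgce (-0.055 to 0.063), Copg2 (-0.031 to 0.023) and Mcts2 (-0.026 to 0.26). Beyond what each alternative drops or rescales, the cause was not tested. With 3 libraries a group and no read counts, differences as small as most of these could not be resolved.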
